A study of Drosophila melanogaster with 3 samples.

Results

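At 829 places in the genome of Drosophila S2 cells, a peak of the female Doublesex isoform DSXF met a peak of the male isoform DSXM, but the centres of the 2 peaks lay more than 200 bp apart. These displaced pairs were chosen from the peak positions themselves. A DSXF peak had to overlap exactly 1 DSXM peak by 1 bp or more, and that DSXM peak had to overlap no other DSXF peak. There were 4163 such 1-to-1 pairs on the chromosome arms 2L, 2R, 3L, 3R and X and on chromosome 4, and the centre of a peak was the mean of its start and end. The displaced pairs made up 19.9% of them (95% Wilson interval 18.7 to 21.2%), and the remaining 3334 are called aligned pairs here. The 829 pairs held 12.8% of the 6494 DSXF peaks and 15.5% of the 5347 DSXM peaks on these sequences.

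Doublesex (DSX) is the transcription factor through which the somatic sex determination pathway of Drosophila acts on its target genes. Sex-specific splicing gives a female and a male protein with the same DNA-binding domain and different C-terminal ends, so both forms recognise the same kind of DNA site. The best known targets are the yolk protein genes of the fat body, which the female form activates and the male form represses. A peak in chromatin immunoprecipitation followed by sequencing (ChIP-seq) is a stretch enriched in fragments bound by the protein, and it is usually wider than the site itself because the fragments extend to either side.

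The study compared S2 cells, a line derived from Drosophila embryos, carrying the DSXF construct in a V5-His expression vector with S2 cells carrying the DSXM construct in the same vector. Both were transfected together with the selection plasmid pCoBlast, and chromatin was precipitated with an antibody against the V5 tag. Input DNA came from cells without transfection. The DSXF and DSXM samples each pooled 3 biological replicates and the input pooled 2, so each isoform had 1 peak list and no replicate error. The DSXF sample was sequenced in 4 runs and the DSXM sample in 3. The peak lists give neither height nor read counts, so depth is unknown. An edge that differs between the lists cannot be compared with the spread between cultures, and every value below is a description of these 2 lists. Wilson intervals cover counting over pairs only.

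The distance between centres had chosen the pairs and is given first. It ran from 200.5 to 2544.5 bp among the displaced pairs, with a median of 407.5 bp and quartiles of 293 and 593.5 bp. The median among the aligned pairs was 39 bp. Of the displaced pairs, 603 were more than 300 bp apart, 294 more than 500 bp, 46 more than 1000 bp and 5 more than 1500 bp. The distances thinned out across the threshold without a break. The nearest pairs inside it were 2 on 3L at 200.5 bp and another there at 201.5 bp. The nearest outside included pairs on 2L, 2R and 3R at 200 bp each.

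An edge shared by both isoforms was the most frequent feature at the tolerance used. Edges were called aligned when they lay within 100 bp of each other, and 532 of the 829 pairs (64.2%, 60.9 to 67.4%) had 1 edge aligned while the other edge lay farther out in 1 isoform. In these pairs the centres differed because a peak was longer at 1 end. Over all 1-to-1 pairs the share was 43.0%. The count depends on the tolerance: 42.9% of displaced pairs had 1 edge aligned within 50 bp and 82.8% within 200 bp. A further 158 pairs (19.1%, 16.5 to 21.9%) were staggered, with both edges moved the same way by more than 100 bp; this share was 27.7% with a tolerance of 50 bp and 10.3% with 200 bp. The remaining 139 (16.8%, 14.4 to 19.5%) were nested, with 1 peak lying inside the other and neither edge aligned, against 9.32% of all 1-to-1 pairs. No displaced pair (0 of 829) could have both edges aligned, because edges within 100 bp keep the centres within 100 bp. Among the aligned pairs, 53.5% had both edges aligned, 37.8% had 1, 7.47% were nested and 1.26% staggered. The distance between centres is made of these edge offsets, so the difference in makeup follows in part from the choice of pairs.

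**Figure D1:**
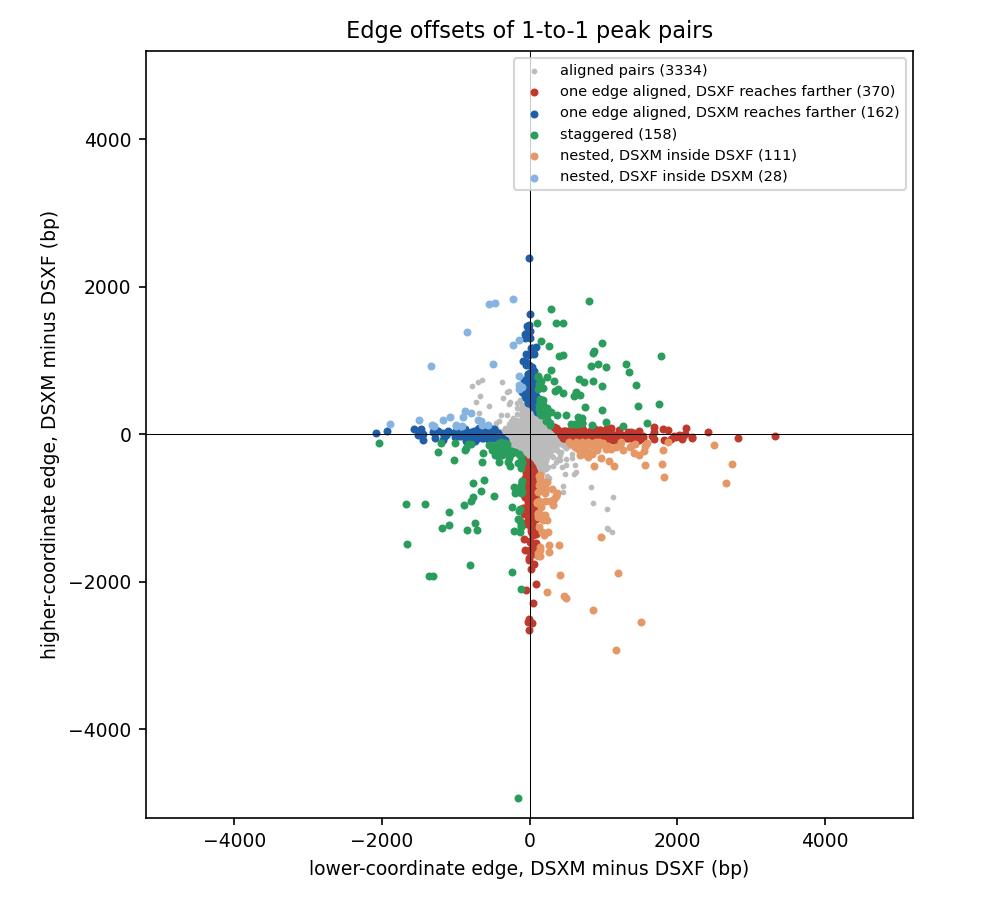
Offset of the lower-coordinate edge (horizontal, bp) and of the higher-coordinate edge (vertical, bp), DSXM minus DSXF, for each 1-to-1 pair; colours mark the geometry of the 829 displaced pairs and grey the 3334 aligned pairs. Most displaced pairs lie along the axes, where 1 edge is shared, and the lowest point is the staggered pair on 2R with offsets of -152 and -4937 bp.

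**Figure D2:**
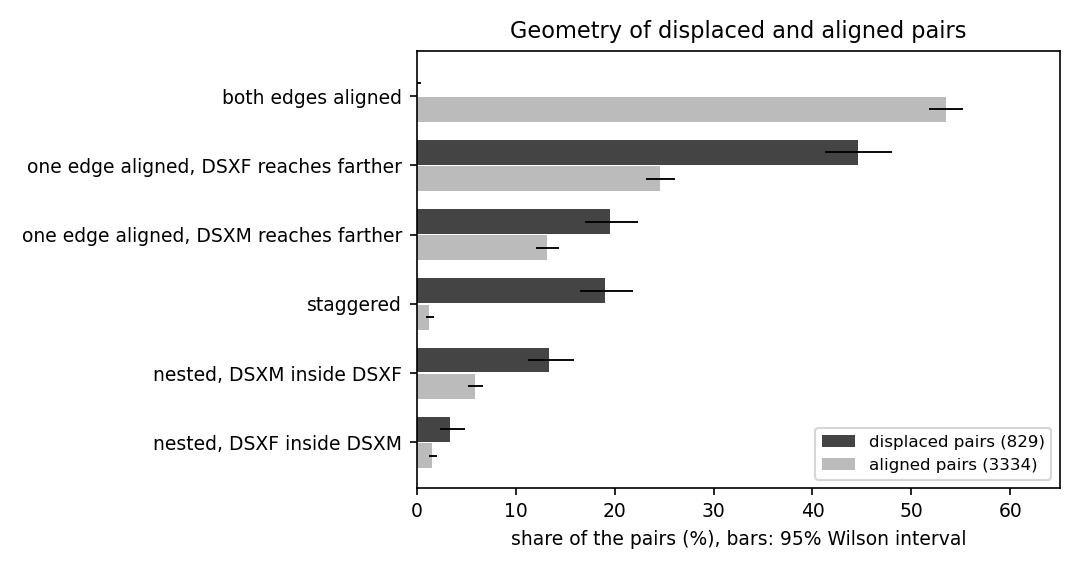
Share of displaced (dark) and aligned (light) pairs in each geometry, in percent, with 95% Wilson intervals as lines. Pairs in which DSXF reached farther from an aligned edge are the most frequent displaced kind (44.6%), and none of the displaced pairs had both edges aligned.

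The isoform that reached farther was usually DSXF. Among the 532 pairs with 1 edge aligned, DSXF reached farther in 370 and DSXM in 162, so DSXF did so in 69.5% (65.5 to 73.3%). The first geometry held 28.6% of all 1-to-1 pairs against 44.6% of the displaced, and the second 14.5% against 19.5%. Of the nested pairs, 111 had the DSXM peak inside the DSXF peak and 28 the reverse, which is 79.9% (72.4 to 85.7%). These 2 kinds made up 7.37% and 1.95% of all 1-to-1 pairs. Staggered pairs, which were 4.8% of all 1-to-1 pairs, showed no such lean, with DSXF the wider in 77 of 158 (48.7%, 41.1 to 56.5%).

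The lean towards DSXF was also present in aligned pairs. There DSXF reached farther in 65.1% (62.4 to 67.6%) of the 1259 pairs with 1 edge aligned, and the DSXM peak was the inner one in 78.7% of 249 nested pairs. DSXF was the wider peak in 558 of 828 displaced pairs of unequal width (67.4%, 64.1 to 70.5%) and in 65.5% (63.9 to 67.1%) of the aligned ones. Over all 1-to-1 pairs of unequal width the share was 65.9%. The intervals of displaced and aligned pairs overlapped in each of these shares. The DSXF sample had 1 more sequence run than the DSXM sample, and the part of depth in the lean was not tested.

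The share with the wider DSXF peak is given here by distance between centres. That distance chose the pairs and is built from the same edges as the widths, so the values are a description only. DSXF was the wider in 135 of 226 pairs (59.7%, 53.2 to 65.9%) between 200 and 300 bp apart and in 208 of 309 (67.3%) between 300 and 500 bp. It was the wider in 179 of 247 pairs of unequal width (72.5%) between 500 and 1000 bp, and in 36 of 46 (78.3%, 64.4 to 87.7%) beyond 1000 bp. The interval of the group between 500 and 1000 bp (66.6 to 77.7%) lay just above that of the nearest group. The intervals of the group between 300 and 500 bp (61.9 to 72.3%) and of the farthest group overlapped that of the nearest. The share in aligned pairs (65.5%) lay above that of the nearest group. Of the 46 farthest, 23 were staggered (50%, against 19.1% of all displaced pairs). In 18 DSXF reached farther from an aligned edge (39.1% against 44.6%). A further 3 were nested with DSXM inside (6.52% against 13.4%) and 2 had DSXM reaching farther (4.35% against 19.5%). The cut on distance uses the same edges, so this makeup follows in part from it.

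The aligned edge itself coincided closely. Its offset had a median of 32 bp in the 370 pairs with the longer DSXF peak and 36.5 bp in the 162 with the longer DSXM peak, against 35 and 33 bp in the corresponding aligned pairs, all within the 100 bp that define it. The free edge reached a median of 828.5 bp beyond the DSXM peak in the first group (quartiles 619.25 and 1166 bp, longest 3325 bp). In the second group DSXM reached a median of 694 bp beyond the DSXF peak (quartiles 519 and 983.5 bp, longest 2396 bp). Chromatin had been sheared to fragments of up to 1000 bp per the labels. The reach exceeded that length in 135 of 370 DSXF pairs (36.5%, 31.7 to 41.5%) and 38 of 162 DSXM pairs (23.5%, 17.6 to 30.5%). In the corresponding aligned pairs it did so in 0 of 819 and 0 of 440. With 1 edge aligned, centres more than 200 bp apart require a long free edge, so the reach is tied to the choice of pairs. Whether fragment length bears on the reach was not tested.

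**Figure D3:**
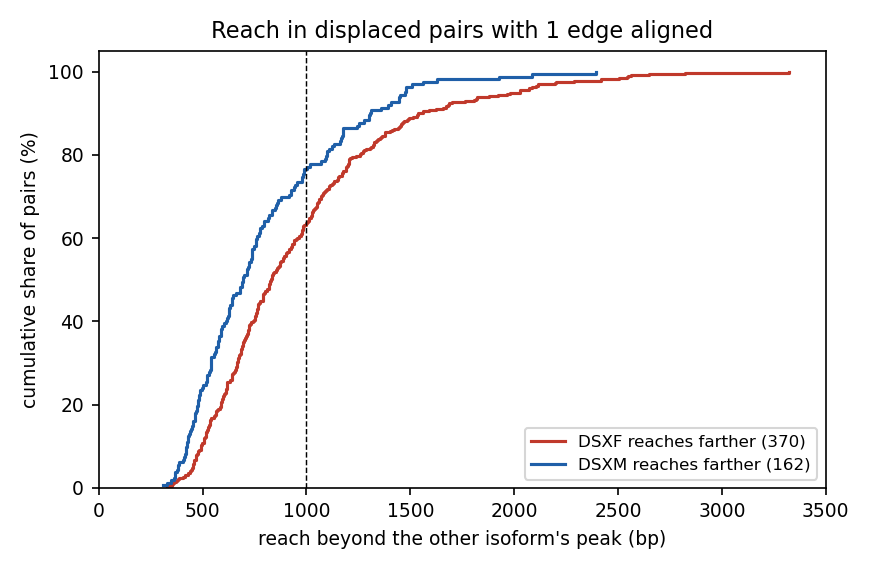
Cumulative share of displaced pairs (vertical, %) by the length that the longer peak reached beyond the other isoform's peak (horizontal, bp), for the 370 pairs with DSXF and the 162 with DSXM reaching farther; the dashed line marks 1000 bp. The DSXF curve lies to the right, with medians of 828.5 and 694 bp.

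The side of the free edge was evenly split. It was the higher-coordinate edge in 180 of the 370 DSXF pairs (48.6%, 43.6 to 53.7%) and in 85 of the 162 DSXM pairs (52.5%, 44.8 to 60.0%). The corresponding shares among aligned pairs were 49.0% and 50.5%. Over all displaced pairs the DSXM centre lay at the higher coordinate in 414 of 829 (49.9%, 46.5 to 53.3%), against 49.8% of all 1-to-1 pairs with unequal centres, and in 73 of 158 staggered pairs (46.2%, 38.6 to 54.0%). These sides are those of the genome map and not of a gene, whose direction of transcription was not used here.

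The part covered by both peaks was of similar length in displaced and aligned pairs. Displaced pairs shared a median of 1679 bp (quartiles 1237 and 2480 bp), and aligned pairs shared a median of 1529 bp (1159.25 and 2288.75 bp). The whole span of a displaced pair was longer, with a median of 2737 bp against 1717.5 bp. The DSXF peak had a median width of 2474 bp in displaced and 1656.5 bp in aligned pairs, and the DSXM peak 1973 bp and 1586.5 bp. A pair must be wide for its centres to lie more than 200 bp apart and still overlap closely, so the greater widths are tied to the choice of pairs. Both peaks shared a median of 65.4% of the span in displaced pairs and 93.0% in aligned ones.

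Displaced pairs held most of the sequence in which paired peaks differed. Their DSXF peaks covered 625 kb that the DSXM partner did not, which is 61.5% of such sequence over all 1-to-1 pairs. Their DSXM peaks covered 263 kb outside the DSXF partner, or 59.1% of the total for DSXM. The parts covered by both came to 1708 kb. A difference in width of 1.5-fold or more, with DSXF the wider, was found in 301 displaced pairs (36.3%) against 8.12% of all 1-to-1 pairs. The same difference with DSXM the wider was found in 68 (8.20%) against 1.83%. These measures use the same edges as the choice of pairs and are no separate evidence of a difference.

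In 732 of the 829 pairs (88.3%, 85.9 to 90.3%) each centre lay inside the other isoform's peak, against 97.7% of all 1-to-1 pairs. In 55 pairs the DSXM centre lay in the DSXF peak while the DSXF centre was outside the DSXM peak (6.63%, against 1.32% of all 1-to-1 pairs), and in 14 pairs the reverse held (1.69% against 0.336%). Neither centre lay inside the other peak in 28 pairs (3.38%, 2.35 to 4.84%), against 0.673%. A reciprocal overlap of at least 50% was met by 698 pairs (84.2%), against 96.6%. These measures are built from the same positions as the choice of pairs.

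The most displaced pairs with 1 edge aligned had DSXF peaks of several kilobases. On 3R (dm3 positions, here and below) the DSXF peak ran from 13503660 to 13508793 (5134 bp) and the DSXM peak from 13506985 to 13508766 (1782 bp). Their upper edges were 27 bp apart, and DSXF reached 3325 bp farther at the lower edge, which put the centres 1649 bp apart. On 2L the DSXF peak from 19162883 to 19166775 (3893 bp) and the DSXM peak from 19165704 to 19166726 (1023 bp) had upper edges 49 bp apart and centres 1386 bp apart. The next DSXF peak there was 365 bp away and the next DSXM peak 301 bp. In both pairs the shared end was the one at the higher coordinate.

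Other DSXF peaks were longer at the higher-coordinate end. On 2L the DSXF peak from 2903827 to 2909755 (5929 bp) and the DSXM peak from 2903817 to 2907107 (3291 bp) began 10 bp apart, and DSXF ended 2648 bp farther on. On X the peaks ran from 4216091 to 4221150 for DSXF (5060 bp) and from 4216074 to 4218607 for DSXM (2534 bp). This pair stood alone, and the nearest other DSXF peak was 34016 bp away. The fifth, on 2L, ran from 22174650 to 22180613 for DSXF (5964 bp) and from 22174654 to 22178066 for DSXM (3413 bp), with lower edges 4 bp apart. Another DSXF peak lay only 74 bp from this pair.

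Among pairs with the longer DSXM peak, the most displaced had shorter reaches than those 5. On 2L the DSXM peak ran from 21621647 to 21627512 (5866 bp) and the DSXF peak from 21621650 to 21625116 (3467 bp). Lower edges were 3 bp apart and DSXM ended 2396 bp farther on. On 3R the DSXM peak from 18507061 to 18510653 (3593 bp) began 2086 bp before the DSXF peak from 18509147 to 18510630 (1484 bp), and they ended 23 bp apart. On 3L the DSXM peak from 14353727 to 14357334 (3608 bp) began 1928 bp before the DSXF peak from 14355655 to 14357293 (1639 bp). The remaining pairs of this kind named by size had centres 820 bp apart on 2R (DSXF 1976286 to 1978010, DSXM 1976296 to 1979640) and 761.5 bp apart on 3R (DSXF 16666457 to 16668361, DSXM 16665013 to 16668282).

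**Figure D4:**
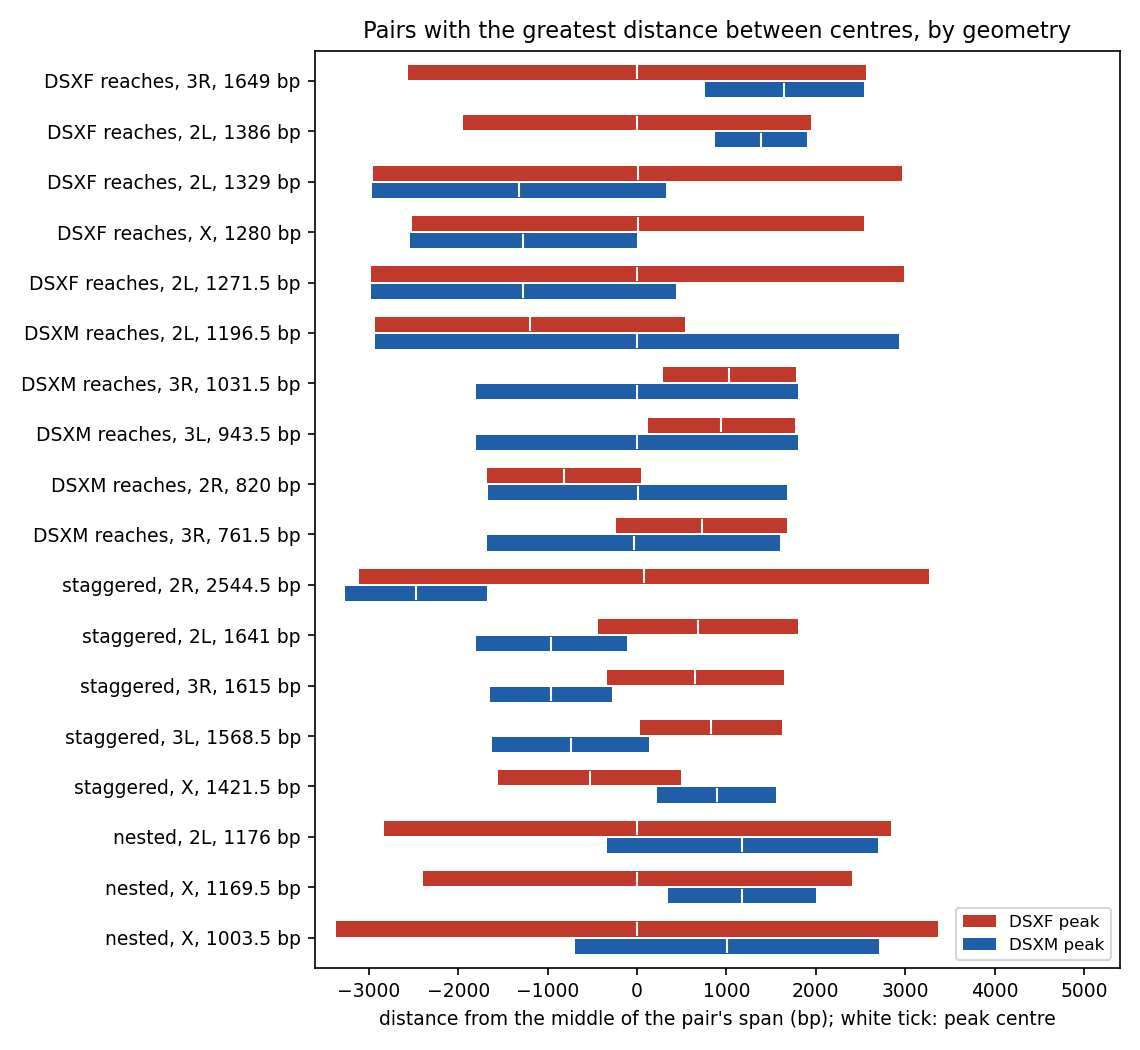
DSXF (red) and DSXM (blue) peaks of the pairs with the greatest distance between centres in each geometry, drawn to scale around the middle of the pair's span (bp); white ticks are peak centres and the labels give the chromosome arm and the distance between centres. In the top 10 pairs 1 end coincides, whereas 4 of the 5 staggered pairs overlap only at their ends.

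The greatest distance of all belonged to a pair on 2R that was nearly of the same kind. Its DSXF peak ran from 8146094 to 8152465 (6372 bp) and its DSXM peak from 8145942 to 8147528 (1587 bp), with centres 2544.5 bp apart. The lower edges were 152 bp apart, just over the limit for an aligned edge, and the DSXF peak ended 4937 bp farther on. It was therefore counted as staggered.

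Pairs in which the isoforms occupied adjoining stretches were rare. The part covered by both was under 10% of the span in 14 displaced pairs (1.69%, 1.01 to 2.81%), against 0.336% of all 1-to-1 pairs. All 14 were staggered. They shared between 54 and 326 bp, and their centres lay from 935.5 to 1641 bp apart. DSXM was at the higher coordinate in 7 and at the lower in 7, and DSXF was the wider in 7. Of the 14 pairs, 6 were on 3L, 5 on 2L, 2 on 3R and 1 on X. With so few pairs the difference between arms was not tested. These lie close to the limit of the rule on overlap, since peaks a little farther apart would not have been paired.

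The smallest shared part was 54 bp, on 3R, between a DSXM peak from 7913758 to 7915116 (1359 bp) and a DSXF peak from 7915063 to 7917041 (1979 bp). Their centres were 1615 bp apart. On 3L a DSXM peak from 13908798 to 13910553 (1756 bp) met a DSXF peak from 13910453 to 13912035 (1583 bp) over 101 bp. Also on 3L, a DSXM peak from 22067145 to 22068420 and a DSXF peak from 22068329 to 22069689 shared 92 bp, and the next DSXM peak was 6402 bp away. The order was the opposite at 3L from 8289677 to 8291078 for DSXF and from 8290985 to 8292035 for DSXM, which shared 94 bp. The last of the 5, on 3L, had DSXM from 16399277 to 16400464 and DSXF from 16400373 to 16401514, and shared 92 bp. The peaks of these 5 pairs were between 1051 and 1979 bp wide.

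Larger overlaps joined the other widely staggered pairs. On 2L a DSXM peak from 5797250 to 5798940 (1691 bp) and a DSXF peak from 5798615 to 5800857 (2243 bp) shared 326 bp, with centres 1641 bp apart. On X a DSXF peak from 17195356 to 17197408 (2053 bp) and a DSXM peak from 17197135 to 17198472 (1338 bp) shared 274 bp, with centres 1421.5 bp apart and further peaks of both isoforms within 164 bp. Most staggered pairs overlapped more closely than these. Their median shared part was 66.1% of the span, and it fell under 50% in 41 of 158 (25.9%).

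In the displaced nested pairs the inner peak lay off centre by the choice of pairs, which required centres more than 200 bp apart. Among nested aligned pairs the median distance between centres was 48 bp with DSXM inside and 38.5 bp with DSXF inside. On 2L a DSXM peak from 13205487 to 13208515 (3029 bp) lay in the upper part of a DSXF peak from 13202989 to 13208661 (5673 bp), with centres 1176 bp apart. On X a DSXM peak from 4832606 to 4834259 (1654 bp) lay inside a DSXF peak from 4829864 to 4834662 (4799 bp), at 1169.5 bp. Another on X had DSXM from 2197226 to 2200630 (3405 bp) inside DSXF from 2194558 to 2201291 (6734 bp), at 1003.5 bp. In each of these the DSXM peak lay towards the higher coordinate. They were named for their distance, the side was not counted over all nested pairs, and other nested pairs had DSXM towards the lower coordinate. The narrowest DSXM peak of any displaced pair, chosen after its value was seen, was 310 bp wide, on 3R from 23113776 to 23114085, inside a DSXF peak from 23113421 to 23114916 (1496 bp).

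Displacement was more frequent in pairs of wider span. When the 1-to-1 pairs were divided by span into 5 nearly equal classes, 1 of 837 pairs (0.119%) was displaced in the narrowest class (667 to 1317 bp). From there the share rose over the next 3 classes to 5.31%, 20.3% and 34.0%, and it was 39.9% (36.6 to 43.2%) in the widest (3066 to 25644 bp). A distance in bp is easier to reach in a wide pair. The span is also measured over the same peaks, so an edge offset that parts the centres can lengthen it too. The rise therefore follows in part from how span and distance are measured, under either definition used here. Measured relative to the span, with centres apart by more than 10% of it, the shares were 1.55%, 9.89%, 21.0%, 30.4% and 24.97% (22.2 to 28.0%). The highest share was then in the class from 2221 to 3065 bp. That definition held 731 pairs, of which 673 were also more than 200 bp apart.

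**Figure D5:**
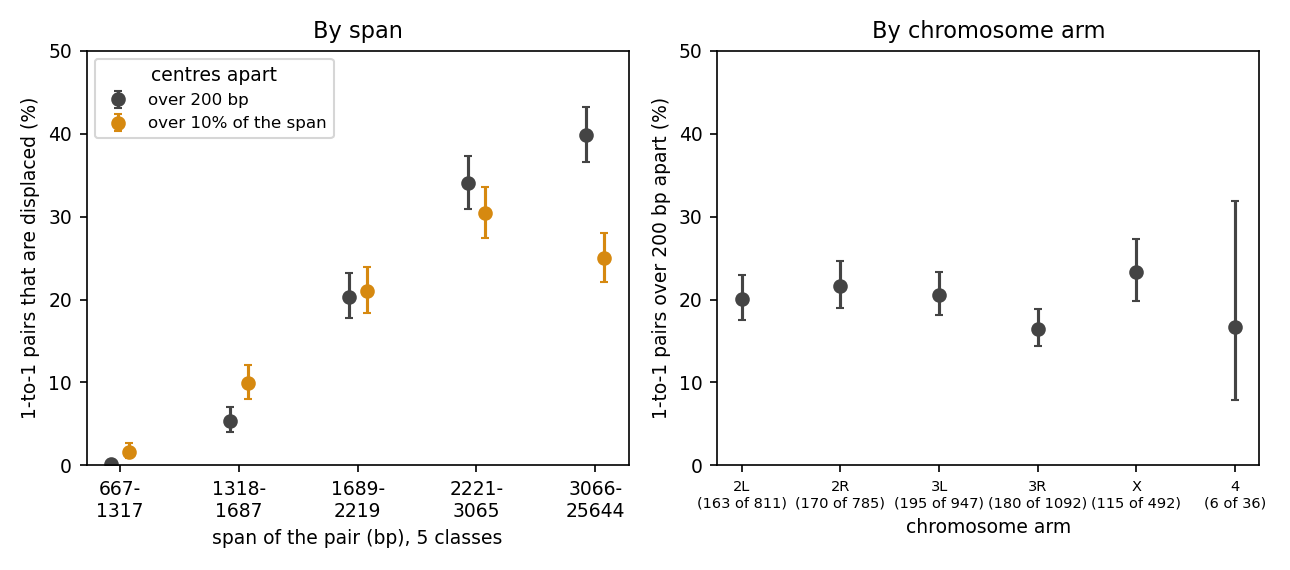
Share of 1-to-1 pairs that were displaced (%), left by class of span for a distance of more than 200 bp (dark) and of more than 10% of the span (orange), right by chromosome arm for more than 200 bp, with 95% Wilson intervals and the numbers of pairs under each arm. The share in bp rises to 39.9% in the widest class, and the arms lie between 16.5 and 23.4%.

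Displaced pairs occurred on every arm. X had 115 among 492 pairs (23.4%, 19.8 to 27.3%), 2R 170 among 785 (21.7%, 18.9 to 24.7%), 3L 195 among 947 (20.6%, 18.1 to 23.3%) and 2L 163 among 811 (20.1%, 17.5 to 23.0%). The lowest share on an arm was that of 3R, with 180 among 1092 (16.5%, 14.4 to 18.8%), and chromosome 4 had 6 among 36 (16.7%, 7.87 to 31.9%). The intervals of X and 2R did not meet that of 3R, and those of 2L and 3L overlapped it. The arms also differed in size of pairs: the median span of all 1-to-1 pairs was 2154.5 bp on X and 1834 bp on 3R. Within the widest class the displaced share was 40.3% (32.1 to 49.1%) on X, 36.3% (30.1 to 43.0%) on 3R and 39.8% (36.2 to 43.4%) on 2L, 2R, 3L and 3R together, and these intervals overlapped. In the class below it was 37.8% (29.4 to 47.1%) on X and 28.9% (23.1 to 35.6%) on 3R, with overlapping intervals too.

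The share with the wider DSXF peak is given here by arm, and differences between arms were not tested. DSXF was the wider in 73.5% of displaced pairs on 2R, 72.2% on X, 68.1% on 2L, 67.8% on 3R and 59.0% on 3L. On chromosome 4 this held for 33.3% of 6 pairs. Over all 1-to-1 pairs of these sequences together DSXF was the wider in 65.7%, and that share was not computed by arm. The pair with the greatest distance on chromosome 4 had the longer peak in DSXM, which ran from 109748 to 112475 (2728 bp) around a DSXF peak from 109966 to 111259 (1294 bp), with centres 499 bp apart.

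Displaced pairs were scattered among aligned ones. Of bins of 1 Mb with a 1-to-1 pair, 118 of 123 held a displaced pair, with a median of 7 and a highest number of 16. That number was reached on 3L between 11 and 12 Mb, among 61 pairs, and between 18 and 19 Mb, among 48. In the 102 bins with 20 or more pairs, the displaced share ran from 3.33 to 37.9% with a median of 19.7%. The highest share was on X between 11 and 12 Mb, with 11 of 29 pairs. After a displaced pair, the next pair along the sequence was displaced in 156 of 829 cases (18.8%, 16.3 to 21.6%). After an aligned pair it was displaced in 673 of 3328 (20.2%, 18.9 to 21.6%). Where displaced pairs followed each other, DSXM lay to the same side in 71 of 156 (45.5%, 37.9 to 53.3%). The intervals of the shares after displaced and after aligned pairs overlapped.

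The longest run was of 5 displaced pairs on X over 87.6 kb, and it held the widest pair. Here the DSXF peak from 12613362 to 12639005 (25.6 kb) and the DSXM peak from 12613793 to 12638991 (25.2 kb) shared 98.3% of their span, and the centres were 208.5 bp apart through 431 bp at the lower edge. The next pair, from 12640818 to 12651928 for DSXF and from 12641435 to 12651925 for DSXM, had upper edges 3 bp apart and centres 307 bp apart. In the other 3 pairs DSXM reached farther. Its reach was 430 bp at 12573650, 1090 bp at the pair that starts at 12609549 and 1308 bp at the pair that starts at 12658341. All 5 pairs had 1 edge aligned. There were 4 runs of 4 displaced pairs, on 2L, 3L and 3R, and 549 displaced pairs had no displaced pair beside them.

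Over all spans together, neighbouring peaks were found at similar distances from displaced and aligned pairs. The choice of pairs did not use these peaks beyond the bar on a second overlap. The nearest other peak of either list lay a median of 1876 bp away (95% order-statistic interval 1695 to 2097 bp) from displaced pairs and 2196.5 bp (2057 to 2341 bp) from aligned pairs. Among aligned pairs the median fell from 2912 bp in the narrowest class of span to 1502 bp in the widest. In the widest class the medians were 1608 bp (1194 to 1891 bp) for displaced and 1502 bp (1325 to 1680 bp) for aligned pairs. In the class from 1689 to 2219 bp the displaced pairs had the higher median, 2422 against 1876 bp, and so they did in the class from 2221 to 3065 bp, 2218 against 1904 bp, with overlapping intervals. In the class from 1318 to 1687 bp they had the lower one, 1440.5 bp (1119 to 2154 bp) against 2535 bp (2213 to 2828 bp), from 44 displaced pairs. The intervals did not overlap in that class. The mean number of other peaks within 10 kb was 2.03 for DSXF and 1.74 for DSXM around displaced pairs and 2.02 and 1.72 around aligned pairs.

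Few free edges had a neighbouring peak close beyond them, in displaced as in aligned pairs. Where DSXF reached farther, another DSXF peak lay within 500 bp beyond the free edge in 36 of 370 pairs (9.73%, 7.11 to 13.2%) and beyond the aligned edge in 28 (7.57%, 5.29 to 10.7%). Beyond the free edge in aligned pairs of this kind the share was 9.40% (77 of 819). A DSXM peak lay within 500 bp beyond the free edge in 23 displaced pairs (6.22%) and beyond the aligned edge in 21 (5.68%). Beyond the free edge in aligned pairs of this kind that share was 7.45% (61 of 819). Where DSXM reached farther, another DSXM peak was that close beyond the free edge in 3 of 162 pairs (1.85%, 0.632 to 5.30%) and beyond the aligned edge in 9 (5.56%, 2.95 to 10.2%). In aligned pairs of this kind the share beyond the free edge was 5.69% (25 of 439, 3.89 to 8.27%), with an overlapping interval. The median gap beyond the free edge to the next peak of the same isoform was 5012 bp for DSXF and 6942.5 bp for DSXM. In the corresponding aligned pairs it was 4550 and 7015 bp. The intervals of free and aligned edges overlapped for either isoform.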

How the data were processed

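The deposited data were 2 peak lists on dm3, 1 per isoform, each with sequence name, start and end in 3 columns and no score. Per the series' design text, the authors pooled the reads of all replicates before alignment and peak calling. The submitters' processing notes name Bowtie 0.12.7 and Picard. Which caller, threshold and control were used is not given in the sources used here, and how the caller sets edges bears on every offset reported. Deeper sequencing can also move an edge outward.

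Starts were read as counted from 0 and are printed counted from 1. Pairs, edge offsets (aligned within 100 bp), neighbours and Wilson intervals were computed in Python 3.11.15 with NumPy 2.4.6, pandas 2.3.3 and SciPy 1.17.1. The numbers of 1-to-1 and of displaced pairs were the same with bedtools 2.31.1, and the classification was tested on simulated data. No test between isoforms was possible with 1 pooled list each.

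The members, classes and alternatives were chosen with earlier results of these data known. Pairs named by position were, by rule, those with the greatest distance between centres in each geometry and on each sequence, the 5 staggered pairs with the smallest shared part and those next to 200 bp. The longest run, the widest pair and the narrowest DSXM peak were added after their values were seen. Genes, sequences and DSX motifs in the pairs were not analysed here, for want of a dm3 genome. The gene table at hand follows Release 6 and was not used.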

Additional observations from a re-analysis of the deposited data

How the results depend on the processing

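The number of displaced pairs follows the distance chosen. It was 1395 with centres more than 100 bp apart and 425 with more than 400 bp, and between 603 and 731 under the other alternatives that changed it. With more than 100 bp, 71.33% of pairs had 1 edge aligned, 14.34% were staggered and 37.6% of pairs on X were displaced. With more than 300 bp, DSXF reached farther in 73.39% of pairs with 1 edge aligned, and 17.28% of pairs on X were displaced. With more than 400 bp, DSXF was the wider in 71.93%, 59.76% had 1 edge aligned, 23.29% were staggered, DSXF reached farther in 75.59% and 13.21% of pairs on X were displaced. The share with 1 edge aligned was 67.58% with centres apart by more than 10% of the span and 67.91% with a reciprocal overlap of 50% or more. It was 42.94% with an edge tolerance of 50 bp and 82.75% with 200 bp, and the staggered share was then 27.74% and 10.25%. How many pairs count as sharing an edge thus depends on the tolerance. Without pairs that had another peak within 500 bp, the median distance to the nearest peak was 2759 bp, since close neighbours were removed. The other 42 values stayed within the interval of the value reported, or within 1.5-fold for the number of pairs; they include all 7 alternatives for the share with the DSXM centre at the higher coordinate. DSXF was the wider, and the one to reach farther, in most pairs under each alternative run. Alternatives for the share reaching farther, the nearest peak and X were added after seeing the data. Leaving out single replicates was not possible after pooling. No paired analysis was possible because the replicates of an isoform were merged into 1 list. Depth is unknown, so its effect on edges cannot be sized.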

Other observations

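Outside the arms, 17 further 1-to-1 pairs lay on heterochromatic and unplaced sequences, and 4 of them (23.5%, 95% Wilson interval 9.56 to 47.3%) had centres more than 200 bp apart.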
